A study of Homo sapiens with 12 samples.

Results

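The 32 genes described here encode the enzymes, kinases and transporter that make and recycle purine and pyrimidine nucleotides. They were listed by name, with earlier results of these data known, so the list is not a blind choice. They were looked up in the table of counts by Entrez identifier and symbol, a step that used no measured values. Each was found once, so that they are 32 of 23434 rows. The libraries are from EU-seq, which sequences RNA labelled in living cells with 5-ethynyl-uridine (EU) and so reports on newly made RNA, in U2OS MycER cells. U2OS is a human osteosarcoma line, and MycER is a chimera of Myc that 4-hydroxytamoxifen (OHT) switches on. A 2 by 2 design, with 3 libraries in each of 4 groups, asked how activation of MycER and an shRNA against CDK12, a kinase of the RNA polymerase II tail, affect newly made RNA. The shNT group expressed a non-targeting shRNA and received no OHT, shNT_OHT expressed the same shRNA and received OHT at 300 nM for 40 h, shCDK12 expressed an shRNA against CDK12, and shCDK12_OHT received both. All 4 groups carried the MycER transgene and a viral shRNA turned on with doxycycline at 1 µg/mL. Every culture was also arrested with nocodazole at 100 ng/mL for 8 h, shaken off, released for 12 h and given 0.5 mM EU for the last 2 h, so the values belong to synchronised cells. How many shRNA sequences, clones or separate cultures stand behind the libraries is not given in the sources used here, and the p-values measure only the spread between these libraries, which may be technical.

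Purines are built stepwise on phosphoribosyl pyrophosphate (PRPP) until inosine monophosphate (IMP) is reached, from which separate branches lead to AMP and GMP. Pyrimidines are built as a ring first, through CAD, DHODH and UMPS, and are then turned into UTP and CTP. Ribonucleotide reductase and the thymidylate enzymes supply the DNA precursors, and salvage enzymes and transporters recover bases and nucleosides. Genes of these pathways are among the classical targets of Myc, and the enzymes that make DNA precursors are known to follow the cell cycle.

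The targeted gene was checked first. CDK12 was at 323, 289 and 300.2 CPM in shNT, 434, 356 and 400.5 in shNT_OHT, 293, 277 and 298 in shCDK12 and 215, 208 and 218 in shCDK12_OHT. CPM is the usual library-scaled count, here with TMM library sizes. The libraries labelled shCDK12 overlapped with shNT, and only with OHT were those labelled for the CDK12 shRNA below both shNT groups. The log2 change of CDK12 was -0.08 ± 0.08 (edgeR adjusted p = 0.447) in shCDK12 against shNT and -0.88 ± 0.11 (edgeR adjusted p = 0.00011) in shCDK12_OHT against shNT_OHT, each ± the SE of the fit, so this gene did not bear out the label of shCDK12 without OHT. An shRNA acts on finished transcripts, and whether that bears on these values of newly made CDK12 RNA was not tested. The MYC row, in which reads of MYC and of the transgene cannot be told apart, had means of 2093 ± 112 CPM in shNT, 1967 ± 248 in shNT_OHT, 1124 ± 89.8 in shCDK12 and 2062 ± 53.5 in shCDK12_OHT (SD, n = 3). Library totals ran from 1251695 counts (shNT_OHT replicate 2) to 10447836 (shCDK12_OHT replicate 2), and no pair of libraries from the same group agreed within sampling noise. Summed markers of mesenchymal and bone cells, the lineage of U2OS, were at 1504 to 1579 CPM in shNT, 1008 to 1104 in shNT_OHT, 411 to 422 in shCDK12 and 565 to 581 in shCDK12_OHT over 8 genes, none of them at 0 throughout. In shCDK12 against shNT 6 of the 8 had enough counts for a test. There 1 was called higher and 5 lower (edgeR adjusted p under 0.05), where 29.6% and 32.4% of all genes were. Their log2 changes ran from -4.12 to 1.07. Of 4 genes listed for other traits of U2OS, 2 were tested in that comparison, and both were called lower. Epithelial, blood and endothelial markers summed to at most 15.5, 2.15 and 1.62 CPM in any library.

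Myc and its partner bind a DNA word called the E-box, so the promoters were searched for its canonical form CACGTG, which reads alike on both strands. RefSeq promoter windows (GRCh38.p14, 250 bases before to 50 after the start) were matched for 30 of the 32 genes, all but ADSL and IMPDH2. The canonical E-box was in 6 of them (20%: DHODH, PPAT, ATIC, NME1, AK4 and SLC29A1), in 7.43% of all 27305 windows and in 10.4% of those of tested genes. The stretches around the upstream E-boxes are shown because 3 of these genes, DHODH, PPAT and SLC29A1, are among those called higher with OHT below. Letters run 5′ to 3′ on the strand of the gene, and capitals mark the E-box.

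DHODH, chr16:72008545-72008630 (+ strand): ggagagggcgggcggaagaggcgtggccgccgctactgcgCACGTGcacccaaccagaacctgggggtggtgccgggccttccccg
PPAT, chr4:56435752-56435837 (- strand): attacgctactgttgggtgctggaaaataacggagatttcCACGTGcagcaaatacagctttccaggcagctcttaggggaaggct
ATIC, chr2:215311973-215312058 (+ strand): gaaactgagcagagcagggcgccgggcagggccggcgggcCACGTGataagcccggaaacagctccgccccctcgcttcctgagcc
AK4, chr1:65147419-65147504 (+ strand): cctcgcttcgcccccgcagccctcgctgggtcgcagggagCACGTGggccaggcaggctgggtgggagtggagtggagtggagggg
SLC29A1, chr6:44219365-44219415 (+ strand): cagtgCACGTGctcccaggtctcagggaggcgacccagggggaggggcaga

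The E-box starts 159 bases before the start of DHODH, 182 before that of PPAT, 46 before that of ATIC, 93 before that of AK4 and 245 before that of SLC29A1, whose stretch is cut by the edge of the window. ATIC has another 30 bases after its start, and the only one of NME1 lies 35 bases after its start. The E-box variants CACGCG and CATGCG, searched on both strands, were in 6 of the 30 windows (20%), against 17.2% of all windows and 27.1% of those of tested genes. The E2F words TTTCCCGC and TTTGGCGC, a form tied to S phase genes, were in PRPS2 and TYMS only among the members (6.67%), against 2.31% of all windows and 3.93% of those of tested genes. Such a match is a word in the sequence, not a measured binding site. PPAT and PAICS, both of the purine pathway, start 126 bases apart in opposite directions, so the E-box listed for PPAT lies past the start of PAICS, in its transcribed part.

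With OHT, genes of pyrimidine, purine and salvage metabolism rose in the shNT libraries, and in the libraries labelled shCDK12 genes of every role fell. Of the 32 genes 29 had a mean normalized count above 32 and were tested, whereas CTPS2, NME2 and HPRT1 had too few counts. With OHT in shNT, 11 rose and 1 fell (edgeR adjusted p under 0.05), where 9.05% of the 10272 genes tested rose and 8.29% fell. The median log2 change was 0.46 over the 29 genes and -0.029 over all genes tested. With OHT in the libraries labelled shCDK12, 0 rose and 16 fell, against 27.5% and 21.5% of all genes, and the median was -0.32, against 0.048 over all genes. The difference between the responses, the interaction of OHT with the shRNA in a fit of all 12 libraries, was called lower for 18 members and higher for 0, against 19.6% and 25.6% of all genes. Its median was -0.90, against 0.10 over all genes. With upper-quartile scaling, 20 members were lower and 0 higher in the interaction, and of all genes 2479 were higher and 2777 lower, with medians of -1.02 over the members and -0.017 over all genes. In libraries thinned to 1251695 counts each, GUK1 was called higher with OHT in shCDK12 (0.46, edgeR adjusted p = 0.0293). At an unadjusted p under 0.05, too, 0 members were higher with OHT in shCDK12 or in the interaction. The members' counts together were 0.253% to 0.259% of the total in shNT, 0.304% to 0.328% in shNT_OHT, 0.294% to 0.301% in shCDK12 and 0.206% to 0.215% in shCDK12_OHT. These are shares of the labelled RNA: the mouse RNA that was mixed in has no rows in the table, so a shift in how much RNA the cells made altogether cannot be seen. Nor can fewer cells of a type and less RNA per cell be told apart in bulk libraries.

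**Figure D1:**
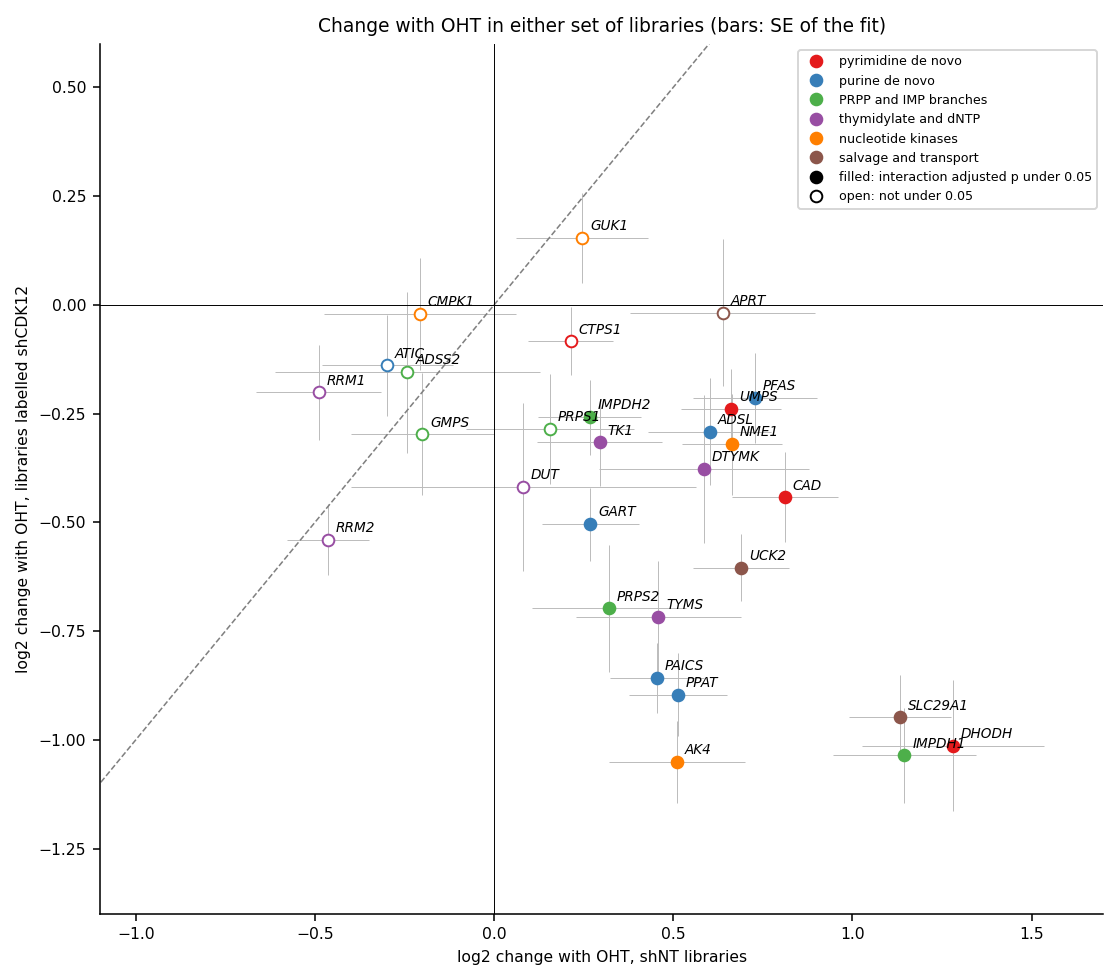
Log2 change with OHT in the shNT libraries (x axis) against that in the libraries labelled shCDK12 (y axis) for the 29 tested genes, coloured by role, with the SE of each fit as bars and a dashed line of equal change. The 18 filled points, whose interaction was called, lie to the right of the line, with DHODH, IMPDH1 and SLC29A1 farthest from it.

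The genes of pyrimidine synthesis had the largest median rise of any role with OHT in shNT, 0.74 over 4 tested genes. CAD, the protein that carries the opening steps of the ring, was at 103, 103 and 90.2 CPM in shNT, 205, 144 and 171 in shNT_OHT, 120.0, 95.9 and 95.9 in shCDK12 and 73.1, 73.0 and 82.7 in shCDK12_OHT. The shNT_OHT libraries were all above the other groups, and those of shCDK12_OHT were the lowest. CAD rose by 0.81 ± 0.15 (edgeR adjusted p = 0.00238) with OHT in shNT, changed by -0.44 ± 0.10 (edgeR adjusted p = 0.00172) with OHT in shCDK12 and had an interaction of -1.26 ± 0.19 (edgeR adjusted p = 2.04e-05), all on the log2 scale. DHODH, the mitochondrial enzyme that closes the path to orotate, was at 11.7, 17.8 and 15 CPM in shNT, 38.5, 28.0 and 40.0 in shNT_OHT, 28.0, 24.3 and 30.2 in shCDK12 and 12.4, 14.7 and 13.2 in shCDK12_OHT. It was higher in shNT_OHT and in shCDK12 than in shNT without overlap, and in shCDK12_OHT it lay within the shNT range. Its changes were 1.28 ± 0.25 (edgeR adjusted p = 0.00382) with OHT in shNT, -1.01 ± 0.15 (edgeR adjusted p = 2.60e-05) with OHT in shCDK12 and -2.31 ± 0.28 (edgeR adjusted p = 2.24e-06) in the interaction. Its counts were low, at 34 to 138 in shNT_OHT. UMPS, which turns orotate into UMP, was at 118, 138 and 113 CPM in shNT, 198, 222 and 169.6 in shNT_OHT, 101, 99.8 and 101 in shCDK12 and 76.6, 90.7 and 88.5 in shCDK12_OHT. The shNT_OHT group was the highest, and both groups labelled for the CDK12 shRNA were below shNT. UMPS changed by 0.66 ± 0.14 (edgeR adjusted p = 0.00546), -0.24 ± 0.09 (edgeR adjusted p = 0.0381) and -0.90 ± 0.17 (edgeR adjusted p = 0.000242) in the same order. CTPS1, which makes CTP from UTP, was at 238, 240.5 and 246 CPM in shNT, 258, 269.8 and 314 in shNT_OHT, 189, 185 and 202 in shCDK12 and 173, 190.0 and 179 in shCDK12_OHT, with changes of 0.21 ± 0.12 (edgeR adjusted p = 0.228), -0.08 ± 0.08 (edgeR adjusted p = 0.393) and -0.30 ± 0.14 (edgeR adjusted p = 0.0753). Its paralog CTPS2 was at 1.41, 1.76 and 1.00 CPM in shNT, 1.25, 0 and 0 in shNT_OHT, 0.232, 0.420 and 0.740 in shCDK12 and 1.36, 1.43 and 1.09 in shCDK12_OHT, from 0 to 15 counts a library, and was not tested. CTPS1 (adjusted p = 0.0477 without shNT_OHT replicate 1) gained an edgeR call in shNT_OHT against shNT when 1 library was left out. UMPS (adjusted p = 0.0607 to 0.202 without shCDK12 replicate 3 or shCDK12_OHT replicate 1 or 3) lost the edgeR call in shCDK12_OHT against shCDK12 when 1 library was left out. CTPS1 (adjusted p = 0.0181 without shNT_OHT replicate 1) gained an edgeR call in the interaction when 1 library was left out. UMPS (adjusted p = 0.0523 to 0.119 with no filter on low counts or 1 fit of all libraries) lost the call in shCDK12_OHT against shCDK12 under other settings. CTPS1 (adjusted p = 0.0137 to 0.0141 with DESeq2 or upper-quartile scaling) gained a call in the interaction under other settings.

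Of the 6 genes of purine synthesis up to IMP, 4 rose with OHT in shNT, where 9.05% of all genes did. With OHT in shCDK12, 3 of the 6 fell, where 21.5% of all genes did. PPAT, the amidotransferase that commits PRPP to purines, was at 117, 116 and 118 CPM in shNT, 144, 178 and 181 in shNT_OHT, 197, 255 and 205 in shCDK12 and 124, 117 and 114 in shCDK12_OHT. PAICS, the carboxylase and synthetase that shares its promoter region, was at 204, 212 and 229 CPM in shNT, 248, 310.2 and 329 in shNT_OHT, 351, 356 and 364 in shCDK12 and 188, 186 and 218 in shCDK12_OHT. Both followed one order, with shCDK12 highest, shNT_OHT next, and shNT and shCDK12_OHT close together. With OHT, PPAT changed by 0.51 ± 0.14 (edgeR adjusted p = 0.0196) in shNT and -0.90 ± 0.10 (edgeR adjusted p = 6.88e-07) in shCDK12, with an interaction of -1.41 ± 0.17 (edgeR adjusted p = 1.34e-06). PAICS changed by 0.46 ± 0.13 (edgeR adjusted p = 0.0274) and -0.86 ± 0.08 (edgeR adjusted p = 1.27e-07), with an interaction of -1.32 ± 0.15 (edgeR adjusted p = 1.04e-06). PFAS, the enzyme of the amidine step, was at 51.8, 51.9 and 50.6 CPM in shNT, 101, 69.3 and 82.6 in shNT_OHT, 57.2, 51.7 and 58.8 in shCDK12 and 45.8, 49.2 and 49.0 in shCDK12_OHT. ADSL, the lyase used in the path to IMP and again on the way to AMP, was at 53.6, 58.6 and 56.6 CPM in shNT, 94.6, 66.0 and 92.2 in shNT_OHT, 58.1, 43.1 and 50.0 in shCDK12 and 37.9, 40.2 and 44.4 in shCDK12_OHT. For both, shNT_OHT stood above every other group and shCDK12 lay near shNT. PFAS rose by 0.73 ± 0.17 (edgeR adjusted p = 0.0108) with OHT in shNT, and its change in shCDK12 was -0.21 ± 0.10 (edgeR adjusted p = 0.093) and its interaction -0.95 ± 0.19 (edgeR adjusted p = 0.000448). The corresponding values of ADSL were 0.60 ± 0.17 (edgeR adjusted p = 0.0268), -0.29 ± 0.12 (edgeR adjusted p = 0.0565) and -0.91 ± 0.21 (edgeR adjusted p = 0.00152). PPAT (adjusted p = 0.0669 to 0.112 without shNT replicate 1 or 2 or 3 or shNT_OHT replicate 3), PAICS (adjusted p = 0.0589 to 0.136 without shNT replicate 1 or 2 or 3 or shNT_OHT replicate 3), PFAS (adjusted p = 0.0575 to 0.0703 without shNT replicate 1 or 2) and ADSL (adjusted p = 0.0828 to 0.125 without shNT replicate 1 or 2 or 3 or shNT_OHT replicate 3) lost the edgeR call in shNT_OHT against shNT when 1 library was left out. PFAS (adjusted p = 0.029 without shCDK12 replicate 2) and ADSL (adjusted p = 0.00523 without shCDK12 replicate 2) gained an edgeR call in shCDK12_OHT against shCDK12 when 1 library was left out. PFAS (adjusted p = 0.0342 with upper-quartile scaling) and ADSL (adjusted p = 0.0224 to 0.0374 with DESeq2 or upper-quartile scaling or thinning to equal depth) gained a call in shCDK12_OHT against shCDK12 under other settings.

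GART, a protein that joins several activities of the pathway, was at 147, 151 and 162 CPM in shNT, 163, 179 and 212 in shNT_OHT, 149.6, 148 and 165 in shCDK12 and 104, 108 and 114 in shCDK12_OHT. The shCDK12_OHT libraries were the lowest, and shNT and shCDK12 overlapped. GART changed by 0.27 ± 0.14 (edgeR adjusted p = 0.186) with OHT in shNT and -0.50 ± 0.08 (edgeR adjusted p = 8.49e-05) in shCDK12, with an interaction of -0.78 ± 0.16 (edgeR adjusted p = 0.000411). ATIC, which closes the ring to IMP and has the E-box nearest to its start, was at 46.1 to 56.2 CPM in shNT, 37.9 to 47.3 in shNT_OHT, 37.1 to 43.7 in shCDK12 and 35.2 to 37.9 in shCDK12_OHT. It was the purine gene without a call in any of these 3 comparisons, with values of -0.30 ± 0.18, -0.14 ± 0.12 and 0.16 ± 0.20. GART (adjusted p = 0.0197 without shNT_OHT replicate 1) gained an edgeR call in shNT_OHT against shNT when 1 library was left out.

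**Figure D2:**
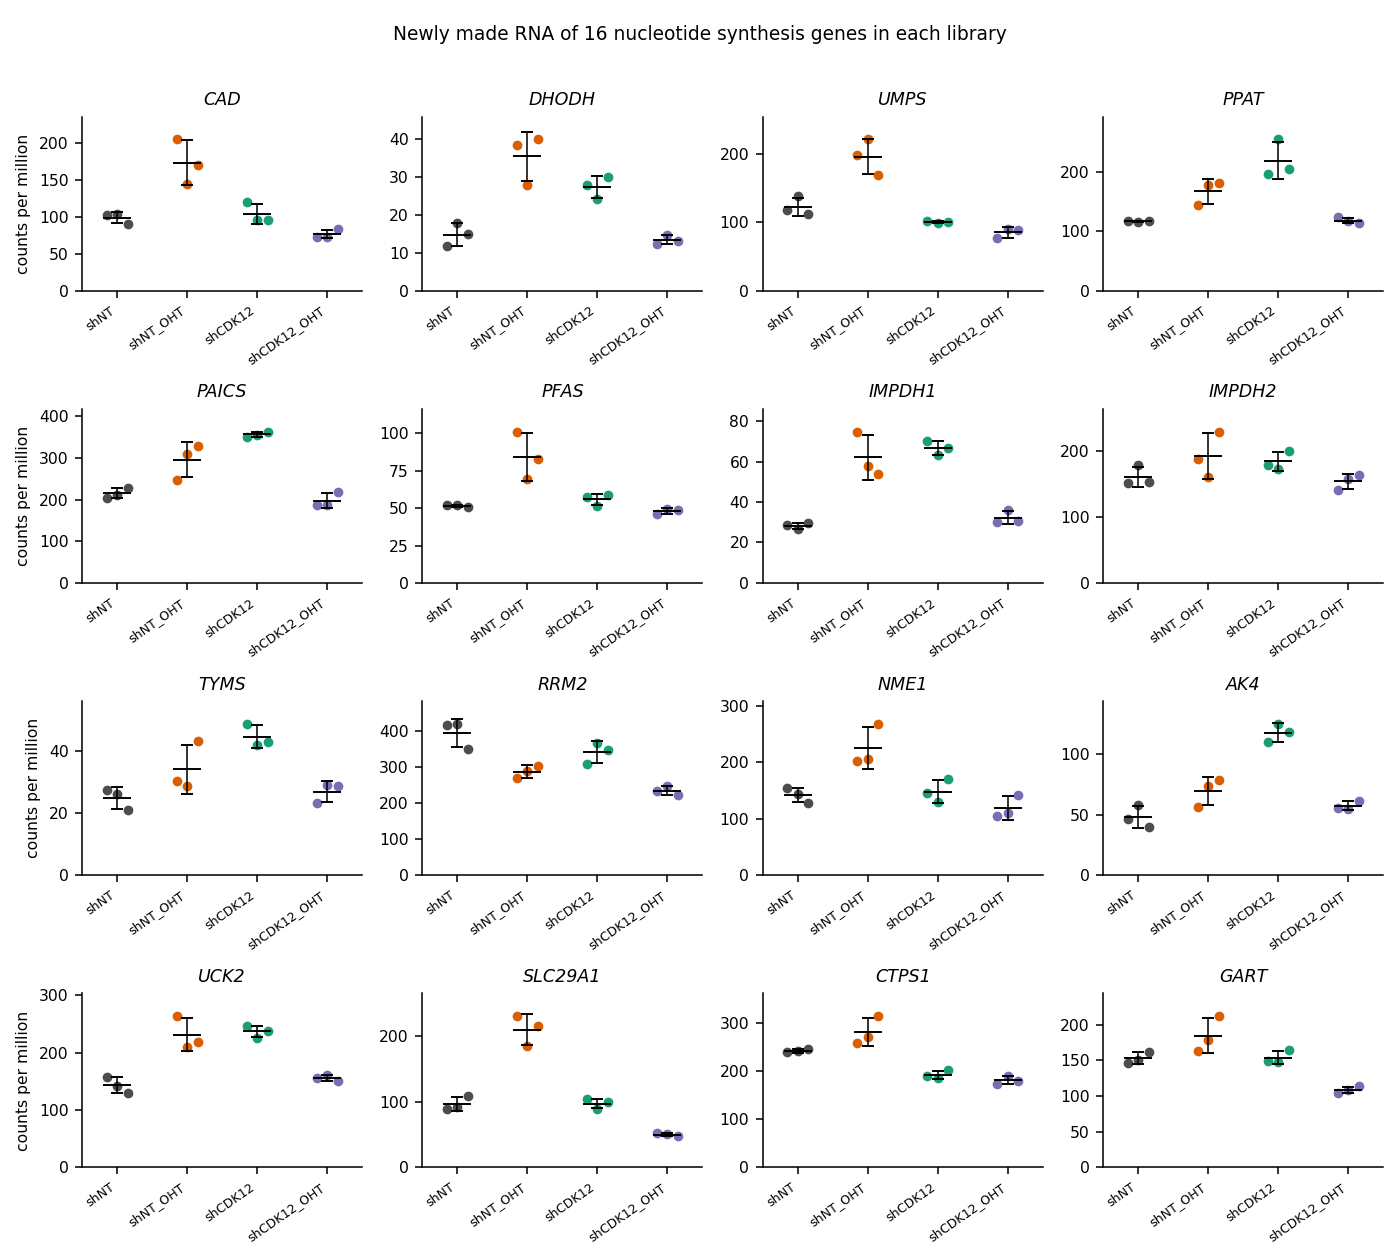
Level of newly made RNA in library-scaled counts (CPM, y axis, from 0) in each library of the 4 groups (x axis) for 16 of the genes, with points for libraries and lines for the mean ± SD (n = 3). CAD, UMPS, PFAS, NME1 and SLC29A1 stand highest in shNT_OHT, PPAT, PAICS and AK4 in shCDK12, and IMPDH1 and UCK2 are raised to like levels in both.

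IMPDH1 stood apart among the genes that supply PRPP and branch from IMP. IMPDH1 and IMPDH2 are paralogs for the step from IMP toward GMP. IMPDH1 was at 28.8, 26.5 and 29.6 CPM in shNT, 74.9, 57.7 and 53.9 in shNT_OHT, 70.4, 63.5 and 66.6 in shCDK12 and 30.2, 36.0 and 30.7 in shCDK12_OHT. Its shNT_OHT and shCDK12 libraries overlapped with each other well above the rest, and shCDK12_OHT lay just above shNT. Its log2 changes were 1.15 ± 0.20 (edgeR adjusted p = 0.00174) with OHT in shNT and -1.04 ± 0.11 (edgeR adjusted p = 6.31e-07) in shCDK12, with an interaction of -2.19 ± 0.21 (edgeR adjusted p = 1.02e-07). IMPDH2 was at 151, 179 and 153 CPM in shNT, 188, 161 and 230.0 in shNT_OHT, 179.7, 173 and 201 in shCDK12 and 141, 158 and 164 in shCDK12_OHT. The groups of IMPDH2 overlapped, except that shCDK12_OHT was below shCDK12. It changed by 0.27 ± 0.14 (edgeR adjusted p = 0.213) and -0.26 ± 0.09 (edgeR adjusted p = 0.0189), with an interaction of -0.53 ± 0.17 (edgeR adjusted p = 0.0165). Per kb of transcript, the IMPDH2 level in shNT was 97.5 ± 9.53 CPM per kb and that of IMPDH1 10.8 ± 0.603 (SD, n = 3), so the gene with the lower level was the one with the larger changes. IMPDH2 (adjusted p = 0.0405 without shNT_OHT replicate 2) gained an edgeR call in shNT_OHT against shNT when 1 library was left out. IMPDH2 (adjusted p = 0.116 to 0.119 without shCDK12 replicate 3 or shCDK12_OHT replicate 1) lost the edgeR call in shCDK12_OHT against shCDK12 when 1 library was left out. IMPDH2 (adjusted p = 0.0532 to 0.0703 without shCDK12 replicate 3 or shNT_OHT replicate 3 or shCDK12_OHT replicate 1) lost the edgeR call in the interaction when 1 library was left out. IMPDH2 (adjusted p = 0.0952 to 0.105 with 1 fit of all libraries or thinning to equal depth) lost the call in shCDK12_OHT against shCDK12 under other settings. IMPDH2 (adjusted p = 0.0683 with thinning to equal depth) lost the call in the interaction under other settings.

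PRPS1 and PRPS2 are paralogs that make PRPP. PRPS2 was at 26.7, 33.0 and 26.6 CPM in shNT, 31.3, 43.7 and 35.4 in shNT_OHT, 37.8, 39.4 and 30.3 in shCDK12 and 25.3, 21.9 and 19.0 in shCDK12_OHT, and PRPS1 at 32.3, 34.7 and 21.6 CPM in shNT, 27.3, 33.0 and 40.0 in shNT_OHT, 37.5, 32.3 and 34.0 in shCDK12 and 29.3, 29.3 and 25.8 in shCDK12_OHT. For PRPS2 the shCDK12_OHT libraries were the lowest, whereas those of PRPS1 overlapped with shNT and shNT_OHT. With OHT, PRPS2 changed by 0.32 ± 0.22 (edgeR adjusted p = 0.323) in shNT and -0.70 ± 0.15 (edgeR adjusted p = 0.00067) in shCDK12, with an interaction of -1.0 ± 0.25 (edgeR adjusted p = 0.00313). The values of PRPS1 were 0.16 ± 0.23 (edgeR adjusted p = 0.694), -0.29 ± 0.13 (edgeR adjusted p = 0.07) and -0.43 ± 0.26 (edgeR adjusted p = 0.183). GMPS, which makes GMP, was at 36.6 to 54.3 CPM in shNT, 37.6 to 40.4 in shNT_OHT, 24.5 to 31.7 in shCDK12 and 21.3 to 22.5 in shCDK12_OHT. ADSS2, on the branch to AMP, was at 16.4 to 28.1, 8.15 to 26.4, 13.9 to 21.6 and 12.3 to 19.2 CPM in the same groups. Neither was called with OHT in either set, at -0.20 in shNT and -0.30 in shCDK12 for GMPS and -0.24 and -0.15 for ADSS2, and their interactions were -0.10 ± 0.24 and 0.13 ± 0.44. PRPS1 (adjusted p = 0.0361 without shCDK12 replicate 2) and GMPS (adjusted p = 0.0313 without shCDK12 replicate 2) gained an edgeR call in shCDK12_OHT against shCDK12 when 1 library was left out. PRPS1 (adjusted p = 0.0312 to 0.0495 with DESeq2 or upper-quartile scaling) and GMPS (adjusted p = 0.0433 with upper-quartile scaling) gained a call in shCDK12_OHT against shCDK12 under other settings.

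With OHT in shNT, 0 of the 6 genes for DNA precursors were called higher and 1 lower. Over all genes the shares were 9.05% and 8.29%. At an unadjusted p under 0.05 RRM1 was also lower. The median log2 change of the 6 was 0.19, against -0.029 over all genes, with 4 above 0 and 2 below. RRM2, the regulated subunit of ribonucleotide reductase, was at 416, 419.8 and 349.8 CPM in shNT, 269, 289.6 and 304 in shNT_OHT, 307, 367 and 347 in shCDK12 and 234, 246 and 223 in shCDK12_OHT. Each OHT group lay below the group with the same shRNA and no OHT, without overlap. RRM2 fell with OHT in both sets, with log2 changes of -0.46 ± 0.11 (edgeR adjusted p = 0.0127) in shNT and -0.54 ± 0.08 (edgeR adjusted p = 2.99e-05) in shCDK12, and the interaction was -0.08 ± 0.14 (edgeR adjusted p = 0.688). RRM1, the large subunit, was at 57.1 to 69.6 CPM in shNT, 41.7 to 47.0 in shNT_OHT, 43.3 to 49.2 in shCDK12 and 37.5 to 42.0 in shCDK12_OHT, with changes of -0.49 ± 0.17, -0.20 ± 0.11 and 0.29 ± 0.19 in the same order. TYMS, the thymidylate synthase, was at 27.6, 26.2 and 21.0 CPM in shNT, 30.4, 28.9 and 43.2 in shNT_OHT, 48.9, 42.0 and 43.1 in shCDK12 and 23.2, 29.1 and 28.7 in shCDK12_OHT. The shCDK12 libraries were above shNT and shCDK12_OHT, and 1 library of shNT_OHT lay among them. TYMS changed by 0.46 ± 0.23 (edgeR adjusted p = 0.184) and -0.72 ± 0.13 (edgeR adjusted p = 0.000175), with an interaction of -1.18 ± 0.25 (edgeR adjusted p = 0.000743). Its row is less certain, since TYMSOS and ENOSF1 overlap it on the other strand and the strand setting of the counting is not given in the sources used here. RRM2 (adjusted p = 0.08 to 0.0917 without shNT replicate 1 or 2) lost the edgeR call in shNT_OHT against shNT when 1 library was left out. RRM1 (adjusted p = 0.0126 with 1 fit of all libraries) gained a call in shNT_OHT against shNT under other settings. RRM1 (adjusted p = 0.0102 with thinning to equal depth) gained a call in shCDK12_OHT against shCDK12 under other settings.

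TK1, the thymidine kinase of dividing cells, was at 99.3, 77.1 and 82.2 CPM in shNT, 127, 82.5 and 105 in shNT_OHT, 78.3, 65.5 and 71.6 in shCDK12 and 59.5, 57.8 and 54.4 in shCDK12_OHT. The shCDK12_OHT libraries were the lowest, and the other groups overlapped in part. TK1 changed by 0.30 ± 0.17 (edgeR adjusted p = 0.259) with OHT in shNT and -0.32 ± 0.10 (edgeR adjusted p = 0.0141) in shCDK12, with an interaction of -0.62 ± 0.20 (edgeR adjusted p = 0.0171). DTYMK, the thymidylate kinase, was at 10.8, 13.3 and 11 CPM in shNT, 18.5, 12.4 and 20.6 in shNT_OHT, 16.4, 13.9 and 15 in shCDK12 and 11.7, 10.5 and 12.7 in shCDK12_OHT, with changes of 0.59 ± 0.29 (edgeR adjusted p = 0.183) and -0.38 ± 0.17 (edgeR adjusted p = 0.0752) and an interaction of -0.97 ± 0.31 (edgeR adjusted p = 0.0158). DUT, which removes dUTP, was at 2.51, 16.5 and 16.2 CPM in shNT_OHT, and the low value of replicate 1 rests on 8 counts. DUT had 9.02 to 11.5 CPM in shNT, 14.1 to 26.7 in shCDK12 and 13.7 to 18.7 in shCDK12_OHT, with changes of 0.08 ± 0.48, -0.42 ± 0.19 and -0.45 ± 0.53 that were not called. TK1 (adjusted p = 0.0616 without shCDK12_OHT replicate 3) lost the edgeR call in shCDK12_OHT against shCDK12 when 1 library was left out. DUT (adjusted p = 0.00496 without shCDK12 replicate 1) gained an edgeR call in shCDK12_OHT against shCDK12 when 1 library was left out. TK1 (adjusted p = 0.0581 without shNT replicate 2) lost the edgeR call in the interaction when 1 library was left out. DUT (adjusted p = 0.0191 without shNT_OHT replicate 1) gained an edgeR call in the interaction when 1 library was left out. TK1 (adjusted p = 0.0821 to 0.266 with 1 fit of all libraries or thinning to equal depth) lost the call in shCDK12_OHT against shCDK12 under other settings. DTYMK (adjusted p = 0.0424 with upper-quartile scaling) and DUT (adjusted p = 0.0379 to 0.0383 with upper-quartile scaling or no filter on low counts) gained a call in shCDK12_OHT against shCDK12 under other settings. TK1 (adjusted p = 0.155 with thinning to equal depth) lost the call in the interaction under other settings.

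The nucleotide kinases differed among themselves. AK4, a mitochondrial adenylate kinase, was at 46.4, 57.6 and 40.1 CPM in shNT, 56.4, 73.4 and 78.3 in shNT_OHT, 109.5, 125 and 118 in shCDK12 and 55.0, 54.9 and 61.3 in shCDK12_OHT. The shCDK12 group was above all others without overlap, and the other groups overlapped. AK4 changed by 0.51 ± 0.19 (edgeR adjusted p = 0.0768) with OHT in shNT and -1.05 ± 0.09 (edgeR adjusted p = 8.42e-08) in shCDK12, with an interaction of -1.55 ± 0.21 (edgeR adjusted p = 6.35e-06). NME1, a nucleoside diphosphate kinase, was at 153, 144 and 128 CPM in shNT, 201, 205 and 268 in shNT_OHT, 145, 129 and 169 in shCDK12 and 104, 109 and 142 in shCDK12_OHT. The shNT_OHT group was the highest, and the others overlapped. Its changes were 0.66 ± 0.14 (edgeR adjusted p = 0.0053), -0.32 ± 0.12 (edgeR adjusted p = 0.0292) and -0.99 ± 0.20 (edgeR adjusted p = 0.000453). NME2, the neighbour and paralog of NME1, was at 0.234, 3.71 and 4.01 CPM in shNT, 4.07, 4.12 and 5.22 in shNT_OHT, 3.24, 4.20 and 4.26 in shCDK12 and 2.85, 2.47 and 1.09 in shCDK12_OHT, from 1 to 40 counts a library, and was not tested. The read-through NME1-NME2, which shares exons with both, had 8 to 108 counts, so the split of reads among them is uncertain. CMPK1, the UMP and CMP kinase, was at 34.2, 38.1 and 33.1 CPM in shNT, 20.1, 47.8 and 28.7 in shNT_OHT, 35.9, 43.0 and 34.8 in shCDK12 and 41.2, 38.6 and 32.8 in shCDK12_OHT, with libraries that overlapped in all groups. CMPK1 changed by -0.21 ± 0.27 and -0.02 ± 0.13, with an interaction of 0.22 ± 0.29, and none of these was called. GUK1, the guanylate kinase, was at 39.1 to 42.2 CPM in shNT, 44.4 to 54.5 in shNT_OHT, 45.1 to 51.1 in shCDK12 and 50.4 to 56.5 in shCDK12_OHT, with changes of 0.25 ± 0.18, 0.15 ± 0.10 and -0.10 ± 0.19, also not called. AK4 (adjusted p = 0.00618 without shNT_OHT replicate 1) gained an edgeR call in shNT_OHT against shNT when 1 library was left out. NME1 (adjusted p = 0.132 to 0.19 without shCDK12 replicate 3 or shCDK12_OHT replicate 1 or 2) lost the edgeR call in shCDK12_OHT against shCDK12 when 1 library was left out. AK4 (adjusted p = 0.0218 to 0.0488 with 1 fit of all libraries or thinning to equal depth) gained a call in shNT_OHT against shNT under other settings. NME1 (adjusted p = 0.0758 with 1 fit of all libraries) lost the call in shCDK12_OHT against shCDK12 under other settings.

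SLC29A1, the equilibrative nucleoside transporter of the plasma membrane, had the smallest interaction p-value of all members. It was at 89.2, 92.1 and 108 CPM in shNT, 231, 185 and 215 in shNT_OHT, 104, 89.3 and 99.0 in shCDK12 and 52.3, 50.7 and 47.3 in shCDK12_OHT. The shNT_OHT libraries were above, and the shCDK12_OHT libraries below, every library of the other groups, while shNT and shCDK12 overlapped. SLC29A1 rose by 1.13 ± 0.14 (edgeR adjusted p = 0.000149) with OHT in shNT, changed by -0.95 ± 0.10 (edgeR adjusted p = 4.20e-07) with OHT in shCDK12 and had an interaction of -2.09 ± 0.17 (edgeR adjusted p = 8.91e-09). UCK2, the uridine and cytidine kinase of the salvage pathway, was at 157, 142 and 129.8 CPM in shNT, 263, 210.4 and 218 in shNT_OHT, 246, 226 and 238 in shCDK12 and 156, 160.2 and 149.7 in shCDK12_OHT. Its shNT_OHT and shCDK12 libraries overlapped above the other groups. UCK2 changed by 0.69 ± 0.13 (edgeR adjusted p = 0.00332) and -0.60 ± 0.08 (edgeR adjusted p = 5.16e-06), with an interaction of -1.30 ± 0.15 (edgeR adjusted p = 1.01e-06), and it overlaps TMCO1 on the other strand by 142 bases. APRT, which salvages adenine, was at 22.3, 25.0 and 19.0 CPM in shNT, 44.8, 21.4 and 34.8 in shNT_OHT, 22.5, 16 and 22.0 in shCDK12 and 23.0, 18.3 and 17.2 in shCDK12_OHT. Its shNT_OHT libraries were spread widely, and the lowest fell among those of shNT. The changes of APRT were 0.64 ± 0.26 (edgeR adjusted p = 0.102), -0.02 ± 0.17 (edgeR adjusted p = 0.938) and -0.67 ± 0.32 (edgeR adjusted p = 0.0907). HPRT1, which salvages hypoxanthine and guanine, had 1 to 68 counts a library and was not tested. APRT (adjusted p = 0.0181 without shNT_OHT replicate 2) gained an edgeR call in shNT_OHT against shNT when 1 library was left out. APRT (adjusted p = 0.0198 to 0.0437 without shCDK12 replicate 2 or shNT_OHT replicate 2) gained an edgeR call in the interaction when 1 library was left out. APRT (adjusted p = 0.044 with 1 fit of all libraries) gained a call in shNT_OHT against shNT under other settings. APRT (adjusted p = 0.0491 with upper-quartile scaling) gained a call in the interaction under other settings.

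**Figure D3:**
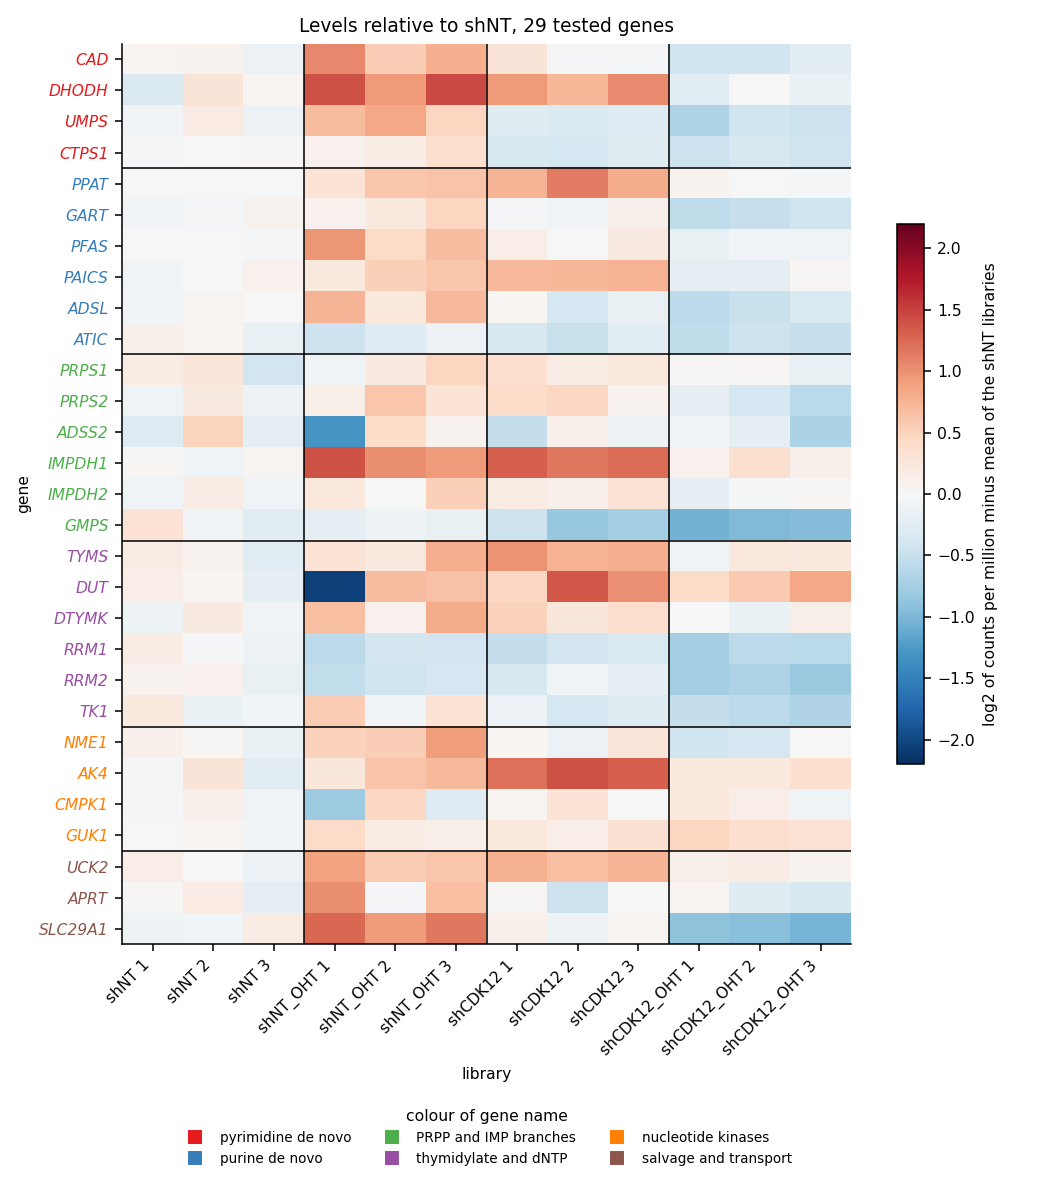
Log2 level of the 29 tested genes (rows, grouped by role) in each of the 12 libraries (columns), each minus the mean of the shNT libraries, with red for higher and blue for lower. In shNT_OHT most rows of the pyrimidine, purine and salvage roles are red, with DHODH, IMPDH1 and SLC29A1 among the strongest. In shCDK12_OHT most rows are blue or pale, with GMPS and SLC29A1 among the lowest.

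Without OHT, the libraries labelled shCDK12 held a mixture of higher and lower genes. Against shNT, 8 members were higher (29.6% of all genes were) and 6 were lower (32.4% were), so with TMM scaling neither share of the 29 members stood above that of all genes. With upper-quartile scaling, 11 of the 29 members were higher and 3 lower, and of 11707 genes tested 3963 were higher and 3282 lower. AK4 and IMPDH1 had the largest rises, 1.27 ± 0.12 (edgeR adjusted p = 2.97e-09) and 1.25 ± 0.14 (edgeR adjusted p = 3.61e-08). DUT (0.98), PPAT (0.91), DHODH (0.88), TYMS (0.81), PAICS (0.73) and UCK2 (0.72) were the other called rises on the log2 scale. GMPS had the lowest value, -0.73 ± 0.17 (edgeR adjusted p = 0.000542), and RRM1 (-0.44), ATIC (-0.39), CTPS1 (-0.33), UMPS (-0.30) and RRM2 (-0.22) were also called lower. The remaining log2 values ran from -0.27 for TK1 to 0.34 for DTYMK and passed no threshold. Thinned to equal depth, GMPS changed by -0.057. UMPS (adjusted p = 0.163 without shNT replicate 2), ATIC (adjusted p = 0.0624 to 0.0888 without shNT replicate 1 or 2 or shCDK12 replicate 2), RRM1 (adjusted p = 0.0501 without shNT replicate 1) and RRM2 (adjusted p = 0.0684 to 0.206 without shNT replicate 1 or 2 or shCDK12 replicate 1 or 3) lost the edgeR call in shCDK12 against shNT when 1 library was left out. IMPDH2 (adjusted p = 0.03 to 0.0435 without shNT replicate 2 or shCDK12 replicate 2) and TK1 (adjusted p = 0.024 to 0.0391 without shNT replicate 2 or shCDK12 replicate 1) gained an edgeR call in shCDK12 against shNT when 1 library was left out. UMPS (adjusted p = 0.0604 to 0.0767 with upper-quartile scaling or thinning to equal depth), ATIC (adjusted p = 0.0686 to 0.124 with upper-quartile scaling or thinning to equal depth), GMPS (adjusted p = 0.842 with thinning to equal depth), RRM1 (adjusted p = 0.109 with thinning to equal depth) and RRM2 (adjusted p = 0.0628 to 0.202 with DESeq2 or upper-quartile scaling or 1 fit of all libraries or thinning to equal depth) lost the call in shCDK12 against shNT under other settings. PRPS2 (adjusted p = 0.0251 to 0.0376 with upper-quartile scaling or thinning to equal depth), IMPDH2 (adjusted p = 0.0133 with upper-quartile scaling), TK1 (adjusted p = 0.0285 with thinning to equal depth) and GUK1 (adjusted p = 0.0479 with upper-quartile scaling) gained a call in shCDK12 against shNT under other settings.

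The libraries labelled shCDK12 without OHT were also set against shNT_OHT, a comparison that shares libraries with those above. There 9 members were lower and 2 higher, where 20.3% and 18.9% of all genes were. SLC29A1 had the lowest value, -1.09 ± 0.14 (edgeR adjusted p = 6.54e-05). UMPS (-0.93 ± 0.14), ADSL (-0.74 ± 0.18), CAD (-0.72 ± 0.16), PFAS (-0.59 ± 0.17) and NME1 (-0.59 ± 0.15) were also lower in shCDK12 than in shNT_OHT. DHODH (-0.38 ± 0.21), PAICS (0.30 ± 0.13), IMPDH1 (0.12 ± 0.17) and UCK2 (0.06 ± 0.13) were not called, which does not show that their levels are alike, and PPAT was higher, by 0.41 ± 0.14 (edgeR adjusted p = 0.0356). Set beside shNT, the log2 values of shCDK12 were 0.02 for SLC29A1, 0.06 for CAD, 0.11 for PFAS, 0.05 for NME1 and -0.17 for ADSL, none of them called, whereas DHODH, PAICS, IMPDH1, UCK2 and PPAT had the rises given above. AK4 was higher (0.79 ± 0.16) and CTPS1 (-0.53 ± 0.12), TK1 (-0.54 ± 0.17) and APRT (-0.78 ± 0.27) were lower in shCDK12 than in shNT_OHT. The other log2 values were -0.49 for GMPS, -0.24 for GART, -0.21 for DTYMK, -0.06 for ATIC, -0.05 for IMPDH2, 0.01 for PRPS2, 0.01 for GUK1, 0.06 for ADSS2, 0.07 for PRPS1, 0.07 for RRM1, 0.27 for RRM2, 0.34 for CMPK1, 0.38 for TYMS and 0.92 for DUT. PPAT (adjusted p = 0.0522 to 0.186 without shCDK12 replicate 1 or 2 or 3 or shNT_OHT replicate 1 or 3), PFAS (adjusted p = 0.0508 to 0.0749 without shCDK12 replicate 2 or 3), TK1 (adjusted p = 0.0555 to 0.105 without shCDK12 replicate 2 or 3 or shNT_OHT replicate 3), NME1 (adjusted p = 0.0513 without shCDK12 replicate 2) and APRT (adjusted p = 0.0548 to 0.149 without shCDK12 replicate 1 or 2 or 3 or shNT_OHT replicate 1 or 3) lost the edgeR call in shCDK12 against shNT_OHT when 1 library was left out. GART (adjusted p = 0.0372 without shNT_OHT replicate 1), GMPS (adjusted p = 0.0474 without shNT_OHT replicate 1) and CMPK1 (adjusted p = 0.045 without shNT_OHT replicate 2) gained an edgeR call in shCDK12 against shNT_OHT when 1 library was left out. APRT (adjusted p = 0.0699 with thinning to equal depth) lost the call in shCDK12 against shNT_OHT under other settings. GART (adjusted p = 0.0496 with 1 fit of all libraries), PAICS (adjusted p = 0.0399 with 1 fit of all libraries), GMPS (adjusted p = 0.018 with 1 fit of all libraries), DUT (adjusted p = 0.0269 with no filter on low counts) and RRM2 (adjusted p = 0.0498 with 1 fit of all libraries) gained a call in shCDK12 against shNT_OHT under other settings.

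**Figure D4:**
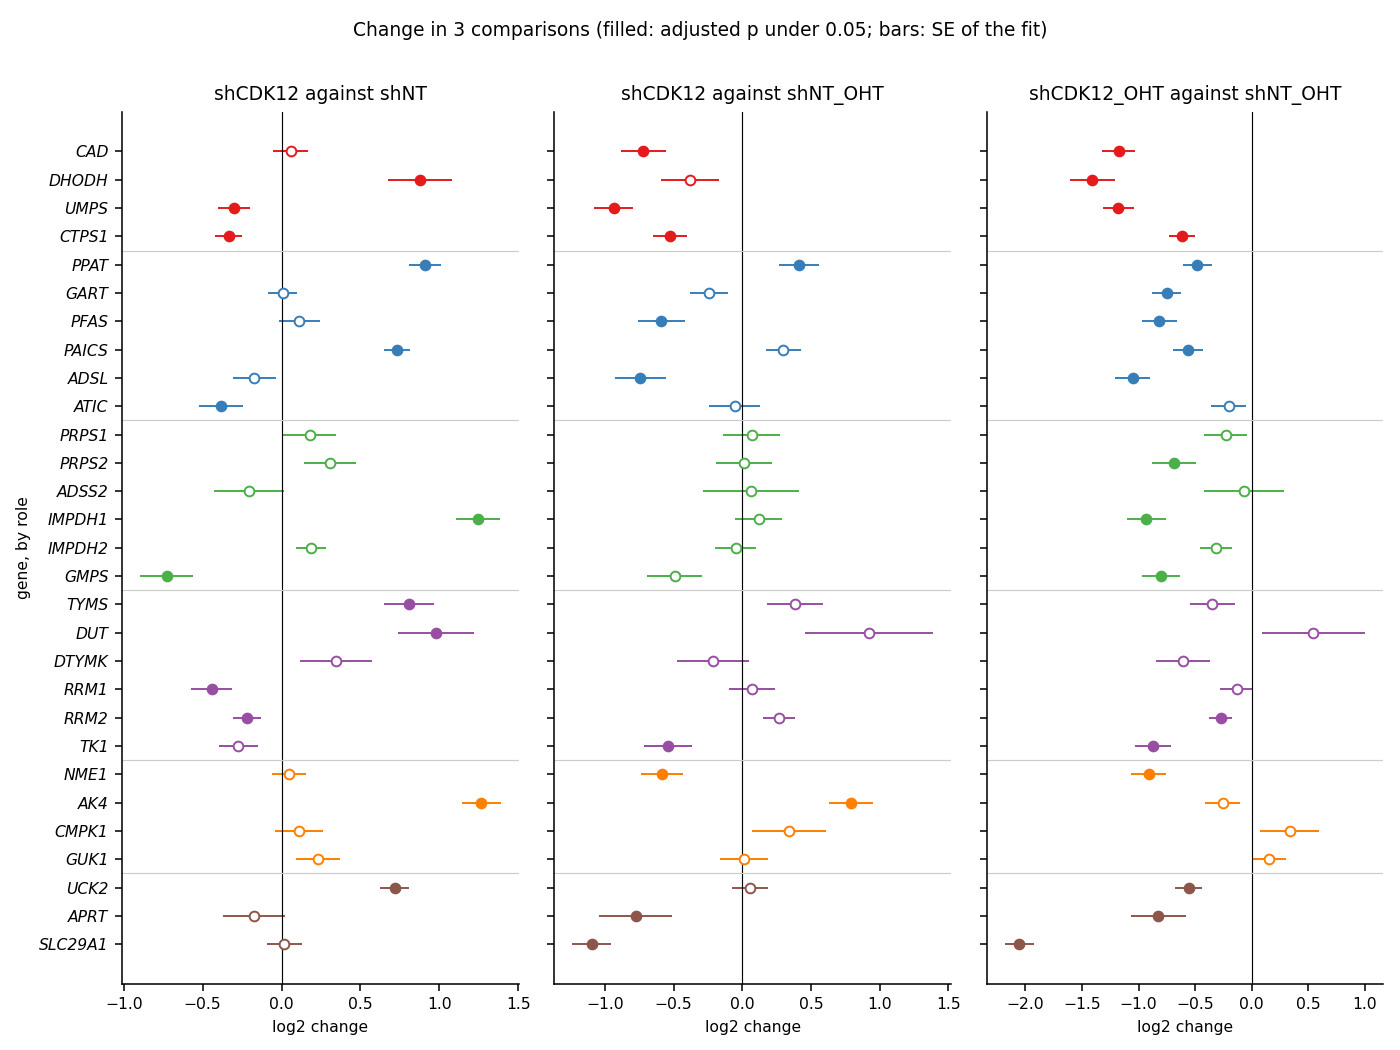
Log2 change (x axis) of each tested gene (rows, grouped by role) in shCDK12 against shNT, shCDK12 against shNT_OHT and shCDK12_OHT against shNT_OHT, with filled points for an edgeR adjusted p under 0.05 and the SE of the fit as bars. In the right panel 18 filled points lie below 0 and none above, with SLC29A1 lowest, while the left panel has 8 above and 6 below.

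Among the OHT libraries, all members called were lower with the CDK12 shRNA. In shCDK12_OHT against shNT_OHT, 18 of 29 were lower and 0 higher (edgeR adjusted p under 0.05, and 0 higher at an unadjusted p under 0.05 too), where 21.6% and 23.8% of all genes were, and the median was -0.61, against 0.048 over all genes. This comparison shares the shNT_OHT libraries with that of shNT_OHT against shNT. SLC29A1 fell most, with -2.05 ± 0.13 (edgeR adjusted p = 3.09e-06), followed by DHODH with -1.41 ± 0.20 (edgeR adjusted p = 0.000277). Pyrimidine synthesis was lower in 4 of 4 tested genes, UMPS at -1.18 ± 0.14, CAD at -1.17 ± 0.15 and CTPS1 at -0.62 ± 0.11 besides DHODH. In purine synthesis 5 of 6 were lower, namely ADSL (-1.05), PFAS (-0.82), GART (-0.75), PAICS (-0.56) and PPAT (-0.48), and ATIC was at -0.21. IMPDH1 (-0.93), NME1 (-0.91), TK1 (-0.87), APRT (-0.82), GMPS (-0.80), PRPS2 (-0.69), UCK2 (-0.56) and RRM2 (-0.27) made up the rest of the called genes. The 11 others ran from -0.61 for DTYMK to 0.55 for DUT. Thinned to equal depth, GUK1 was called higher, at 0.54. PPAT (adjusted p = 0.0507 to 0.052 without shCDK12_OHT replicate 2 or 3), PRPS2 (adjusted p = 0.0642 to 0.0749 without shCDK12_OHT replicate 2 or 3), RRM2 (adjusted p = 0.103 to 0.173 without shNT_OHT replicate 3 or shCDK12_OHT replicate 1 or 2 or 3) and APRT (adjusted p = 0.0792 to 0.0846 without shCDK12_OHT replicate 2 or 3) lost the edgeR call in shCDK12_OHT against shNT_OHT when 1 library was left out. PRPS1 (adjusted p = 0.0466 without shNT_OHT replicate 1), IMPDH2 (adjusted p = 0.012 to 0.015 without shNT_OHT replicate 1 or 2), TYMS (adjusted p = 0.0303 without shNT_OHT replicate 1), DTYMK (adjusted p = 0.0152 to 0.04 without shNT_OHT replicate 1 or 2), AK4 (adjusted p = 0.00671 without shNT_OHT replicate 1) and CMPK1 (adjusted p = 0.0342 without shNT_OHT replicate 2) gained an edgeR call in shCDK12_OHT against shNT_OHT when 1 library was left out. PRPS2 (adjusted p = 0.0975 with thinning to equal depth) and RRM2 (adjusted p = 0.054 to 0.0866 with no filter on low counts or filterByExpr) lost the call in shCDK12_OHT against shNT_OHT under other settings. IMPDH2 (adjusted p = 0.0259 to 0.0448 with DESeq2 or upper-quartile scaling or 1 fit of all libraries), DTYMK (adjusted p = 0.0228 to 0.0405 with upper-quartile scaling or 1 fit of all libraries) and GUK1 (adjusted p = 0.0443 with thinning to equal depth) gained a call in shCDK12_OHT against shNT_OHT under other settings.

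With both treatments, more members lay below shNT than above it. In shCDK12_OHT against shNT, 13 members were lower and 2 higher, where 27.3% and 28.4% of all genes were. GMPS (-1.03), SLC29A1 (-0.92), RRM2 (-0.75) and RRM1 (-0.64) had the lowest log2 values, and DUT (0.58) and GUK1 (0.39) were the called rises. TK1 (-0.59), UMPS (-0.54), ATIC (-0.53), GART (-0.49), ADSL (-0.46), CTPS1 (-0.41), PRPS2 (-0.39), CAD (-0.39) and NME1 (-0.28) were also called lower. The other values, DHODH (-0.14), PPAT (0.02), PFAS (-0.10), PAICS (-0.12), IMPDH1 (0.22) and UCK2 (0.11) among them, were not called. PRPS2 (adjusted p = 0.0917 to 0.204 without shNT replicate 2 or shCDK12_OHT replicate 2 or 3), DUT (adjusted p = 0.0539 to 0.0961 without shNT replicate 2 or shCDK12_OHT replicate 3) and NME1 (adjusted p = 0.0805 to 0.123 without shNT replicate 1 or shCDK12_OHT replicate 1 or 2) lost the edgeR call in shCDK12_OHT against shNT when 1 library was left out. PAICS (adjusted p = 0.0455 without shCDK12_OHT replicate 3), ADSS2 (adjusted p = 0.0211 without shNT replicate 1) and AK4 (adjusted p = 0.0223 without shNT replicate 2) gained an edgeR call in shCDK12_OHT against shNT when 1 library was left out. ATIC (adjusted p = 0.0952 with thinning to equal depth), PRPS2 (adjusted p = 0.0577 to 0.086 with DESeq2 or 1 fit of all libraries), GMPS (adjusted p = 0.0612 with thinning to equal depth), DUT (adjusted p = 0.212 with 1 fit of all libraries) and NME1 (adjusted p = 0.135 with 1 fit of all libraries) lost the call in shCDK12_OHT against shNT under other settings.

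Genes of the cell cycle moved in the same comparisons, and since several members follow the cycle their values stand beside the results above. Summed over 25 genes, the G2/M markers were at 4281 to 4821 CPM in shNT, 4647 to 5302 in shNT_OHT, 4592 to 4942 in shCDK12 and 2671 to 2837 in shCDK12_OHT. In shCDK12_OHT against shCDK12 25 of 25 were lower, where 21.5% of all genes were, and in the interaction 23, where 19.6% of all genes were. In shNT_OHT against shNT 2 were higher and 0 lower, where 9.05% and 8.29% of all genes were. The 30 markers of the G1/S transition and replication summed to 2477 to 2692, 2666 to 2886, 3425 to 3485 and 2325 to 2471 CPM in the same order of groups. Of these, 21 fell and 0 rose with OHT in shCDK12, where 21.5% and 27.5% of all genes did. In shCDK12 against shNT 13 were higher and 6 lower, where 29.6% and 32.4% of all genes were. In the interaction 17 were lower and 1 higher, where 19.6% and 25.6% of all genes were. The median interaction was -0.65 over these 30 markers, -0.96 over the G2/M markers and -0.90 over the 29 members. The summed levels of the pyrimidine genes were 465 to 502, 663 to 701, 405 to 439 and 337 to 369.8 CPM, and those of the DNA precursor genes 530.2 to 634, 477 to 536, 508 to 562 and 379 to 401 CPM. The pyrimidine sum was therefore highest in shNT_OHT, where the DNA precursor sum was 477 to 536 CPM and overlapped with shNT only at its upper end. Most of the DNA precursor sum was RRM2. Its means were 395 CPM in shNT and 288 in shNT_OHT, of mean sums of 591 and 500 CPM. With OHT in shNT, 4 of these 6 genes had a log2 change above 0 and 2 below. What part the cell cycle had in the members' changes was not tested.

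**Figure D5:**
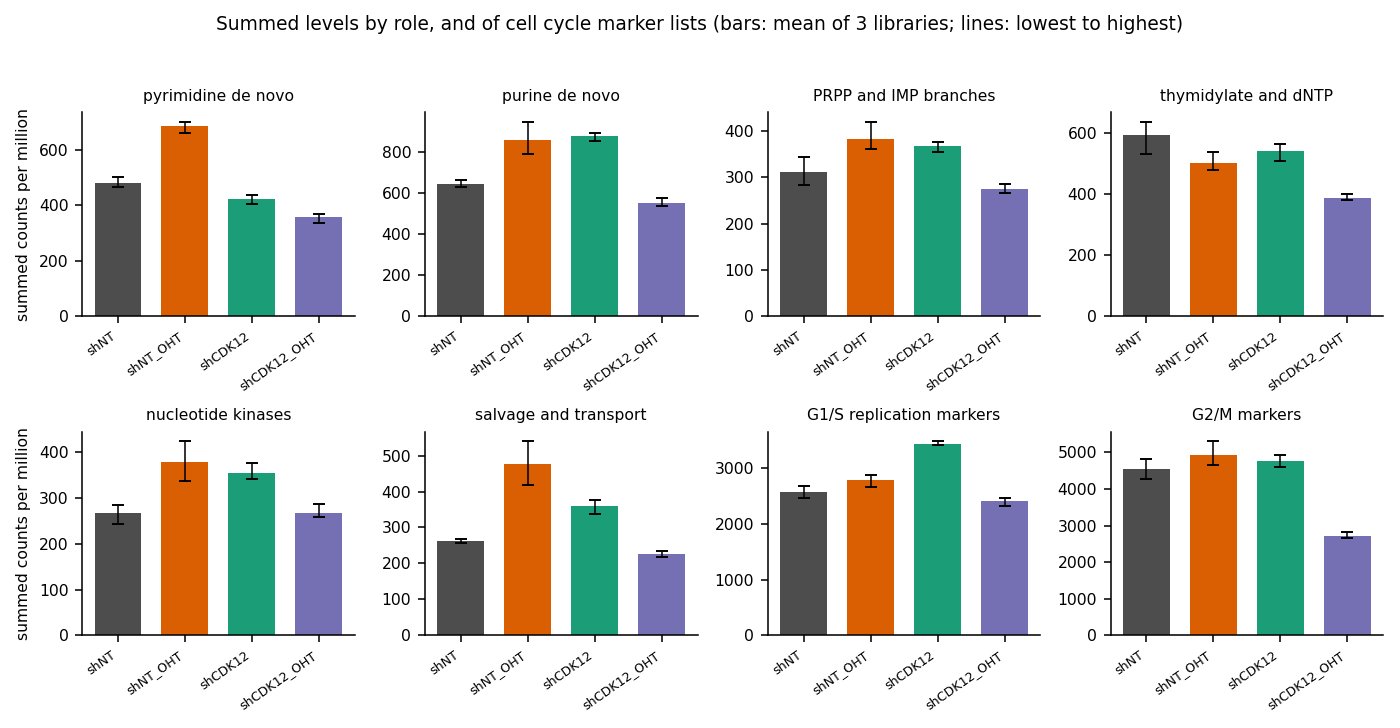
Summed level in library-scaled counts (CPM, y axis, from 0) of the genes of each role and of the G1/S and G2/M marker lists in the 4 groups (x axis), with bars for the mean of 3 libraries and lines from the lowest to the highest. The pyrimidine and salvage sums are highest in shNT_OHT, and the G1/S sum is highest in shCDK12. The shCDK12_OHT bar is lowest in each panel apart from the kinase panel, where it is close to that of shNT. In the PRPP and kinase panels its libraries overlap with those of shNT.

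Levels per kb of transcript set the genes side by side. In shNT, NME1 (159 ± 14.5 CPM per kb), RRM2 (121 ± 12.0), IMPDH2 (97.5 ± 9.53) and CTPS1 (85.1 ± 1.39) were at the top. Further down, TK1 was at 60.2 ± 8.13, SLC29A1 at 46.3 ± 4.92 and GART at 46.3 ± 2.39, and the last 2 did not differ beyond their spread. HPRT1 (0.818 ± 0.539) and CTPS2 (0.351 ± 0.0955) were at the bottom. In shNT_OHT, SLC29A1 (101 ± 11.2) had moved up to the third rank, and RRM2 (88.3 ± 5.36) down to the fifth. CTPS1 (98.8 ± 10.3) came between them, and the SLC29A1 libraries overlapped with those of IMPDH2, CTPS1 and RRM2, so its rank there is not set beyond the spread. In shCDK12_OHT, SLC29A1 was at 24.1 ± 1.21 and ranked below TK1, GART, UCK2, PPAT and PAICS.

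The 6 genes with a canonical E-box in the promoter window were described beside the other 21 with a window and a test. With OHT in shNT, 4 of the 6 rose (DHODH, PPAT, NME1 and SLC29A1), and their median log2 change was 0.59, against 0.30 for the 21 genes, of which 6 rose. ATIC, with E-boxes on both sides of its start, and AK4 were not called there. With OHT in shCDK12, 5 of the 6 fell, with a median of -0.92, against -0.32 and 10 of 21. Over all genes tested, the medians with and without an E-box were 0.011 and -0.041 with OHT in shNT and 0.0078 and 0.058 with OHT in shCDK12. In shNT, 100 of the 878 tested genes with an E-box rose, and 656 of the 7496 without. In shCDK12, 243 of 1022 fell with an E-box and 1867 of 8954 without. No test was run on these groups of genes.

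Other genes of nucleotide metabolism were counted in the same fits, to be read beside the 9.05% of all genes tested that rose and the 8.29% that fell with OHT in shNT, and the 25.6% that were higher and the 19.6% lower in the interaction. Of 20 genes for folate and one-carbon units, which feed purine and thymidylate synthesis, 14 were tested with OHT in shNT, 1 rose and 0 fell, and in the interaction 1 was higher and 3 lower of 16. SHMT2, the mitochondrial serine hydroxymethyltransferase, was the one that rose, by 0.71 ± 0.14 (edgeR adjusted p = 0.00357), and its interaction of -0.98 ± 0.16 and that of MTHFD1L (-0.92 ± 0.18) were the lowest of the list. Of 28 further kinases and enzymes of nucleotide synthesis, 19 were tested with OHT in shNT, of which 3 rose and 1 fell, and 20 in the interaction, of which 5 were higher and 4 lower. RRM2B, the subunit of ribonucleotide reductase that p53 induces, had values of -0.62 ± 0.17 (edgeR adjusted p = 0.0241) with OHT in shNT, 0.77 ± 0.09 (edgeR adjusted p = 2.58e-06) in shCDK12 and an interaction of 1.4 ± 0.22 (edgeR adjusted p = 3.09e-05). Among 17 further genes of salvage and transport, 3 of the 7 tested rose and 0 fell with OHT in shNT, and of 9 interactions 1 was higher and 4 were lower. SLC29A2, another nucleoside transporter, changed by 1.72 ± 0.17 (edgeR adjusted p = 2.20e-05) with OHT in shNT and -1.01 ± 0.13 (edgeR adjusted p = 4.63e-06) in shCDK12, with an interaction of -2.74 ± 0.20 (edgeR adjusted p = 2.85e-09). The purine nucleoside phosphorylase PNP had an interaction of -1.51 ± 0.17 and was higher in shCDK12 than in shNT, by 1.42 ± 0.10 (edgeR adjusted p = 2.89e-12). Of 28 genes of nucleotide breakdown, 14 were tested with OHT in shNT and 16 in the interaction, and 3 rose and 0 fell in the former and 4 were higher and 3 lower in the latter. SAMHD1, which breaks down DNA precursors, was the largest rise of that list in shCDK12 against shNT, at 1.77 ± 0.26 (edgeR adjusted p = 2.53e-06).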

How the data were processed

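EU-seq libraries of U2OS MycER cells were analysed from 1 table of counts per gene. According to the submitters' processing notes, the authors used STAR 2.7.5c, featureCounts 1.4.5-p1 and hg19, and they deposited raw counts of 23434 genes by Entrez identifier. The strand setting of the counting is not given in the sources used here. The extract protocol mixed 40 µg of human RNA with 10 µg of mouse RNA, and no mouse rows are in the table. Here the counts were scaled with TMM and tested with the quasi-likelihood test of edgeR 4.0.16 (limma 3.58.1, R 4.3.3) for genes with a mean normalized count above 32. Pairwise comparisons used the 6 libraries of their groups, and the interaction used all 12. P-values were adjusted over all genes tested by Benjamini-Hochberg, with a threshold of 0.05, and ± after a log2 change is its SE. Levels are CPM, counts scaled to TMM library sizes, and levels per kb used the length of a representative transcript (MANE Select) in the GENCODE annotation. Gene spans, overlaps between genes and neighbouring starts came from the same annotation. DESeq2 1.42.0, another scaling, other filters, thinning to the smallest total of 1251695 counts, a replicate block and leaving out each library were the alternatives. The scripts were tested on simulated counts. Promoter windows came from RefSeq on GRCh38.p14, a build other than hg19, and no coordinates were carried across. The members, lists and tests were chosen with earlier results of these data known.

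All 32 members were named. Levels in each library were given, within each role, for the 3 genes with the smallest interaction p-values, for every gene called in shNT_OHT against shNT and for both genes of 4 paralog pairs. From each further list only the 2 largest called changes each way could be named.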

Additional observations from a re-analysis of the deposited data

Results flagged for a closer look

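The response to OHT differed between the shNT libraries and those labelled shCDK12 for 18 of the 29 genes tested. Each has its test, the interaction term of an edgeR quasi-likelihood fit of all 12 libraries with Benjamini-Hochberg adjustment, and each value is the log2 response in shCDK12 minus that in shNT. The most negative values were those of SLC29A1 (-2.09), IMPDH1 (-2.19) and DHODH (-2.31). Next came UCK2 (-1.30), PAICS (-1.32), PPAT (-1.41), AK4 (-1.55), CAD (-1.26) and TYMS (-1.18). Smaller differences were found for UMPS (-0.90), GART (-0.78), PFAS (-0.95), NME1 (-0.99), ADSL (-0.91), PRPS2 (-1.0), DTYMK (-0.97), IMPDH2 (-0.53) and TK1 (-0.62). All 18 are below 0, and 19.6% of all genes tested were called in that direction. IMPDH2 and TK1 lost the call with single libraries left out (edgeR adjusted p of up to 0.0703 and 0.0581). Groups of 3 libraries were not tested for a single library far from the others.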

How the results depend on the processing

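The log2 changes of 29 genes in 7 comparisons gave 203 values, of which 104 were called. Under every alternative that gave a value (DESeq2, upper-quartile scaling, no filter, filterByExpr, the replicate block, 1 fit of all 12 libraries, thinning to 1251695 counts, and leaving out each library), 74 of the called values kept their call and sign, 30 lost the call in at least 1, and 0 changed sign. Of the 99 values that were not called, 37 gained a call in at least 1. Sign changes touched 38 values, none of them with a call on either side. With each library left out in turn, 7 to 15 members were called in shNT_OHT against shNT (12 with all libraries) and 6 to 12 in shCDK12 against shNT_OHT (11). Of all genes, 670 to 2523 were called in the first (1782), 2856 to 4794 in the second (4400) and 3520 to 6238 in shCDK12_OHT against shNT_OHT (5298). The log2 change of CDK12 then ran from 0.33 to 0.49 in shNT_OHT against shNT, with an edgeR adjusted p of up to 0.197, and from -0.54 to -0.38 in shCDK12 against shNT_OHT, up to 0.0543. In shCDK12 against shNT it was 0.015 with upper-quartile scaling. The values below changed sign with 1 library left out and were not called. In shNT_OHT against shNT these ranges were -0.48 to 0.15 for ADSS2, -0.50 to 0.037 for CMPK1 and -0.13 to 0.64 for DUT. In shCDK12 against shNT these ranges were -0.044 to 0.046 for GART, -0.033 to 0.10 for SLC29A1, -0.38 to 0.12 for ADSS2, -0.059 to 0.14 for NME1, -0.056 to 0.11 for CAD and -0.0014 to 0.18 for CMPK1. In shCDK12_OHT against shCDK12 these ranges were -0.20 to 0.070 for APRT, -0.29 to 0.0097 for ADSS2 and -0.088 to 0.087 for CMPK1. In shCDK12_OHT against shNT_OHT these ranges were -0.048 to 1.19 for DUT and -0.47 to 0.19 for ADSS2. In shCDK12_OHT against shNT these ranges were -0.30 to 0.054 for DHODH, -0.12 to 0.016 for IMPDH2, -0.11 to 0.076 for DTYMK and -0.014 to 0.036 for PPAT. In shCDK12 against shNT_OHT these ranges were -0.10 to 0.22 for PRPS1, -0.094 to 0.11 for PRPS2, -0.16 to 0.014 for ATIC, -0.33 to 0.30 for ADSS2, -0.19 to 0.073 for IMPDH2, -0.082 to 0.11 for GUK1, -0.035 to 0.15 for UCK2 and -0.016 to 0.28 for IMPDH1. In the interaction these ranges were -0.27 to 0.39 for ADSS2, -0.28 to 0.014 for GMPS, -0.026 to 0.51 for CMPK1, -0.17 to 0.020 for GUK1 and -1.03 to 0.20 for DUT.

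A single fit of all 12 libraries called 3256 of all genes in shNT_OHT against shNT, and gave -0.00070 for PRPS2 and -0.015 for GUK1 in shCDK12 against shNT_OHT. After thinning, fewer genes passed the filter, and 4472 of all genes and 9 members were called in shCDK12 against shNT. In the other comparisons 3229 of all genes were called in shCDK12_OHT against shCDK12, 3184 in shCDK12_OHT against shNT_OHT, 3739 in shCDK12_OHT against shNT, 2740 in shCDK12 against shNT_OHT and 3213 in the interaction. Thinning changed the sign of uncalled values: GMPS 0.14, CMPK1 0.039 and GUK1 -0.0073 in shNT_OHT against shNT, NME1 -0.10 in shCDK12 against shNT, PFAS 0.16, PRPS1 0.0070, IMPDH1 -0.0046 and TYMS -0.19 in shCDK12_OHT against shNT, and RRM1 -0.077, CMPK1 -0.13 and GUK1 0.47 in the interaction. The cause of these shifts was not tested.

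The labels number the libraries of each group from 1 to 3 and do not say that a number is shared. Deviations of same-numbered libraries from their group means correlated with r from -0.092 to 0.32 (median 0.031, 3 of 18 pairs over 0.1). Those of different-numbered libraries correlated with r from -0.36 to 0.0998 (median -0.013, 0 of 36 pairs over 0.1). The main fits did not take the numbers as pairs, and whether libraries share something by number was not tested. With the replicate number as a block, 12 members were called in shNT_OHT against shNT, 15 in shCDK12 against shNT, 17 in shCDK12_OHT against shCDK12, 17 in shCDK12_OHT against shNT_OHT, 15 in shCDK12_OHT against shNT, 14 in shCDK12 against shNT_OHT (5 higher and 9 lower, with PAICS, DUT and RRM2 gained as higher) and 18 in the interaction. The block turned the uncalled values of DUT in shNT_OHT against shNT to -0.10 and of PRPS2 in shCDK12 against shNT_OHT to -0.0088, and RRM2 lost its call in shCDK12_OHT against shNT_OHT (edgeR adjusted p = 0.0964). Among the genes tested, depth limits DUT, DTYMK, ADSS2, APRT and DHODH most, whose lowest libraries had 8, 15, 26, 26 and 30 counts.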

Other observations

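The genes of the pathway are short to middling in length, with spans from 2599 to 124938 bases and a median of 27706.5. Across the 29 genes tested, Pearson's r between the logarithm of the span and the log2 change was -0.38 in shNT_OHT against shNT. Over all genes with a span (n = 10147) it was -0.29. In the interaction the values were 0.15 and 0.21 (n = 11515). They were -0.035 and -0.052 in shCDK12 against shNT, 0.16 and 0.21 in shCDK12_OHT against shNT_OHT and 0.31 and 0.12 in shCDK12 against shNT_OHT. The members and all genes differed in sign in shCDK12_OHT against shCDK12 (-0.22 and 0.12) and in shCDK12_OHT against shNT (-0.24 and 0.034). Several of these comparisons share libraries. These are descriptions across genes, which share the same libraries and are not independent replicates. DTYMK starts 141 bases from ING5 and TK1 125 bases from AFMID, each in the opposite direction, as PPAT and PAICS do.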
